A study of Xenopus laevis with 4 samples.

Results

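The genes followed here are multicilin, the regulator that was injected, its relative geminin, and genes of the E2F and DP families. Of these families multicilin is known to join E2f4, E2f5 and Dp1, so not every member is a partner of multicilin. The members are all probe sets whose platform gene symbol, without the ending .L or .S, is mcidas, gmnn, e2f1, e2f3, e2f4, e2f5, tfdp1 or tfdp2. Of 32539 probe sets besides controls, 16 met this rule and belonged to 9 of the 11303 genes the arrays name. Of these 16, 14 passed a filter that removed the dimmest 25% of probe sets and so entered the tests. Xenopus laevis is an allotetraploid frog, and .L and .S mark the copies of a gene on its long and short subgenomes, called homeologs. By platform symbol, the probe sets of mcidas, e2f3, e2f4 and tfdp2 belong to the .S copy only and those of e2f1 to the .L copy only. Probe sets of both copies were found for gmnn and tfdp1. Whether a probe set also reads the other homeolog was not tested. No probe set had e2f5 as its only symbol, so the e2f5 genes were not analysed here.

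Explants of presumptive ectoderm (animal caps) were compared in 2 groups of 2 Affymetrix arrays each. In the first, embryos had received synthetic mRNA for ICD together with mRNA for MCI-HGR at the 2-cell stage, and in the second, mRNA for ICD alone. ICD is the usual name of the Notch intracellular domain and MCI-HGR that of multicilin fused to a glucocorticoid receptor domain, which keeps it inactive until hormone is given. Both groups were explanted at stage 9 to 10, exposed to dexamethasone from stage 11.5 on, and the RNA was collected 5 h after that, at about stage 14. So both groups carried ICD and both had hormone, and MCI-HGR was the difference. The first group is called MCI-HGR and the second ICD below, and replicate numbers 1 and 2 are those of the labels.

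Multicilin is a coiled-coil protein of the geminin family that has no known DNA-binding domain of its own. In Xenopus it joins E2f4 or E2f5 and the DP protein Dp1 in a complex that switches on genes of centriole assembly and of multiciliated cell formation. E2F proteins bind DNA as dimers with a DP protein. In the cell cycle of mammals E2F1 and E2F3 act mainly as activators of S-phase genes, while E2F4 and E2F5 act mainly as repressors with pocket proteins of the retinoblastoma family. Geminin binds Cdt1 and so blocks a new round of replication licensing, and it also binds multicilin.

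The arrays with the same number resembled each other. Median signals were 44.2 and 37.1 on MCI-HGR arrays 1 and 2 and 45.4 and 37.6 on ICD arrays 1 and 2. The summed signal of 7 mesoderm probe sets was 875 and 149 on the MCI-HGR arrays and 1754 and 167 on the ICD arrays, so it was high on both arrays of number 1, mainly through tbxt. The 24 epidermis probe sets summed to 49765 and 66328 with MCI-HGR and to 46875 and 65955 with ICD alone, and 21 of them lay above the highest tag control on all 4 arrays. That sum is mostly bright keratin signal. Counts of marker probe sets higher or lower with the replicate block, described below, are of those with an adjusted p under 0.05. By that count 3 of the 21 tested epidermis probe sets were higher with MCI-HGR and 4 lower. All 3 of tp63, of the basal epidermal factor p63, were lower, by 2.02-fold to 2.93-fold, and grhl3.S was 2.44-fold higher. Of 6 cement gland probe sets, 4 were lower with the block and 0 higher (median log2 difference -0.61), and they summed to 6569 and 17683 with MCI-HGR and to 9796 and 21408 with ICD alone. With the block, 0 of 11 neural probe sets were lower and 4 were higher, among them 3 of sox2.L, by 1.87-fold to 2.39-fold. The groups overlapped for 10 of these 11. Over all tested probe sets, 4.68% were higher and 2.26% lower with the block. Without the block none of these marker probe sets passed by limma. In that fit 2 epidermis, 1 cement gland and 0 neural probe sets had an unadjusted p under 0.05. Of 5 endoderm probe sets, 1 lay above the highest tag control on all 4 arrays, and the multiciliated cell markers summed to 12853 and 9167 with MCI-HGR and to 803 and 869 with ICD alone. Actin controls measure RNA and labelling quality. The middle one divided by the 3' one gave 0.569 and 0.401 on the MCI-HGR arrays and 0.640 and 0.652 on the ICD arrays. The 5' one divided by the 3' one was very small on every array, at 6.6e-04 and 1.0e-04 with MCI-HGR and 4.5e-04 and 9.7e-05 with ICD alone. This second ratio was thus the higher one with MCI-HGR within both numbers. For the GAPDH controls the 5' to 3' ratio was 0.526 and 0.467 with MCI-HGR and 0.572 and 0.586 with ICD alone. Each of these control ratios differed between the groups in the same direction within both numbers. So did the multiciliated cell, summed cement gland, tp63, grhl3.S and sox2.L signals. These differences stand beside every result below, and their part in the results was not tested.

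Log2 signals were compared with limma over 24404 probe sets, with Benjamini-Hochberg adjustment over all of them. With the group as the one term, no probe set passed an adjusted p of 0.05 in either direction (background 0%), and 836 (3.43%) had an unadjusted p under 0.05. With the replicate number as a block, 1142 probe sets (4.68%) were higher and 551 (2.26%) lower with MCI-HGR. The labels do not say that a number marks a shared clutch or day. The blocked calls also rest on a prior for the spread that follows signal intensity: without that trend no probe set passed with the block, and mcidas.S then had an adjusted p = 0.196. "Passed" below refers to limma with the block and the trend. Probe sets counted as higher or lower with the block are those that passed. That fit is an alternative to the main one with the group alone, in which no member had an adjusted p under 0.05. Both adjusted p-values are given for the members that passed. Folds between the groups are ratios of geometric means, that is, of the mean log2 signals.

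Of the 14 tested members, 4 (28.6%) passed, against 6.94% of all tested probe sets: mcidas.S was higher, and one probe set each of e2f1.L, gmnn.S and tfdp2.S was lower. Without mcidas.S, whose injected mRNA defines the groups, 3 of 13 (23.1%) passed, 0 of them higher. The groups did not overlap for 1 member that was higher and 5 that were lower, against 11.5% and 11.8% of all probe sets. Those 5 include e2f4.S, with a log2 difference of only -0.028. They also include Xl2.40590.1.S1_x_at of tfdp2.S, which was above the tag controls on just 1 MCI-HGR array. In 10 of the 14 the MCI-HGR array was lower than the ICD array within both numbers, against 31.7% of all probe sets, and 5 of those 10 read the same gene, tfdp2.S. The 10 also hold e2f4.S and tfdp1.S, with log2 differences of -0.028 and -0.020. The median log2 difference of the 14, of which 6 read tfdp2.S, was -0.27, beside -0.015 over all tested probe sets. In whole explants, fewer cells of a type and less RNA per cell cannot be told apart.

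**Figure D1:**
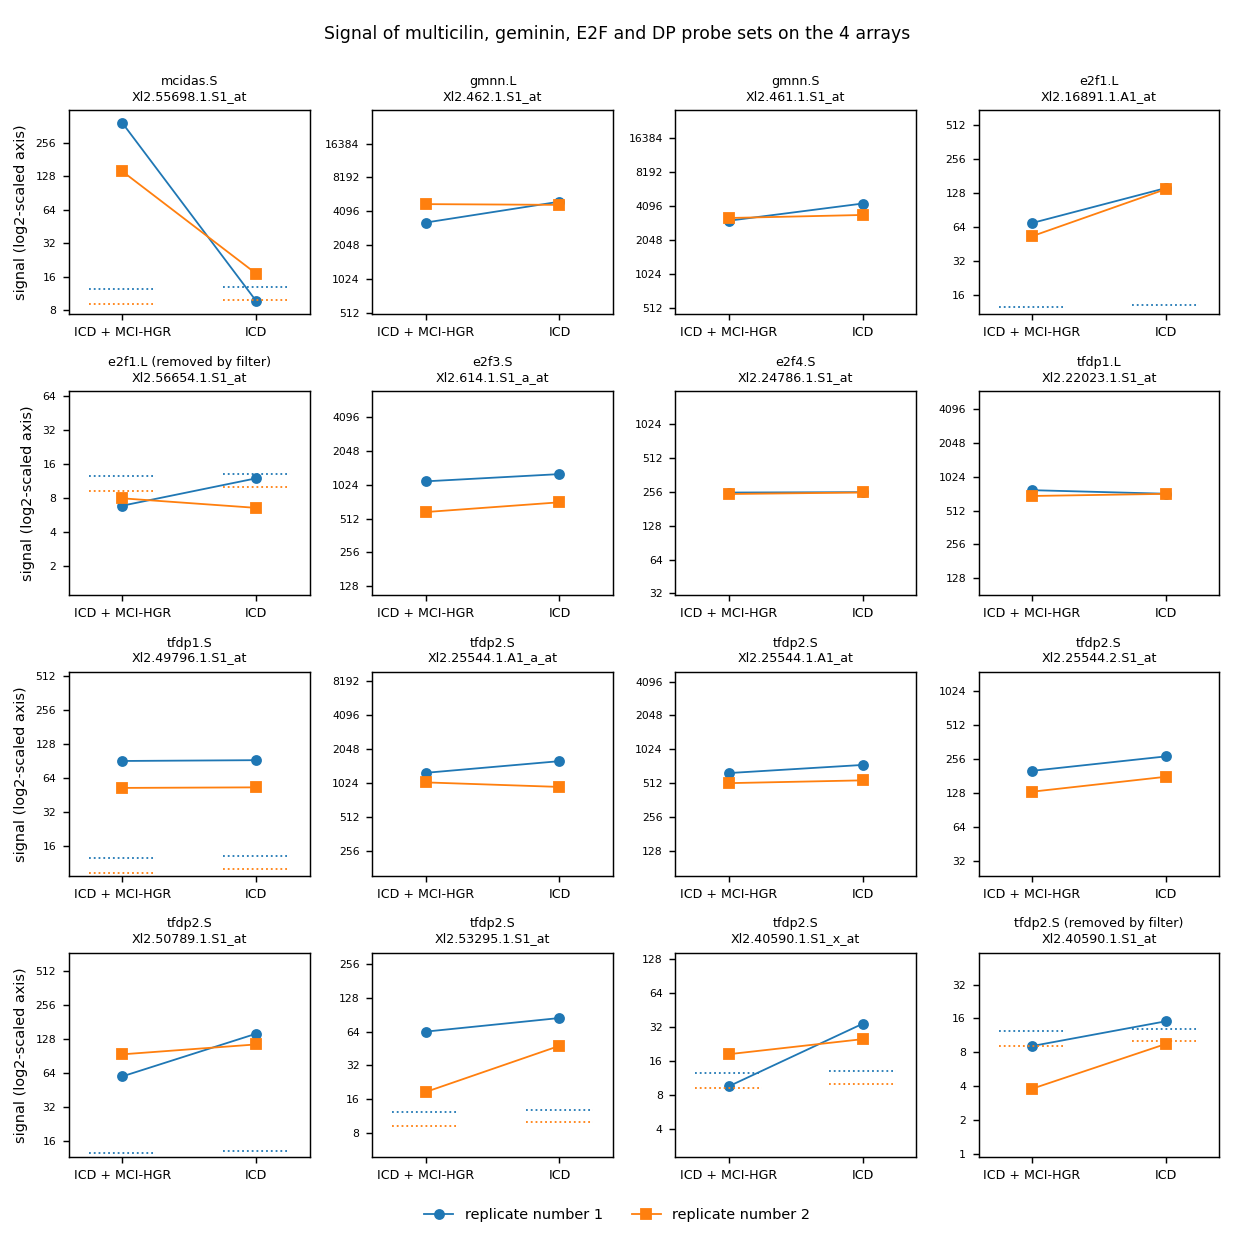
Signal of each of the 16 probe sets on the 4 arrays, one panel per probe set, with MCI-HGR on the left and ICD on the right of each panel and a log2-scaled vertical axis whose range differs between panels. Lines join arrays of the same replicate number, and dotted lines mark the highest tag control of each array where they fall in the panel. mcidas.S stands far above its ICD values on both MCI-HGR arrays, e2f1.L (Xl2.16891.1.A1_at) is lower within both numbers, and e2f4.S is flat.

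Multicilin came first, because its injected mRNA defines the groups. mcidas.S was measured with Xl2.55698.1.S1_at, which read 384.2 and 141.5 on the MCI-HGR arrays and 9.7 and 17.1 on the ICD arrays. Both MCI-HGR arrays were far higher, and the ICD array of number 1 did not exceed the highest of 17 tag controls on that array, which was 13. The log2 difference was 4.18 ± 0.61 (SE, n = 2 per group), with limma adjusted p = 4.12e-07 with the block and 0.205 without. It was at least 3.97 with that ICD array raised to its tag control.

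Raised in that way, the groups differed by at least 15.6-fold. Within number 1 it was at least 29.6-fold and within number 2 it was 8.27-fold. Between the MCI-HGR arrays the signal on number 1 was 2.72 times that on number 2, while on the ICD arrays it was at most 0.760. With 1 array left out and no block, the log2 difference was 3.46 when MCI-HGR replicate 1 was dropped and 4.90 when its replicate 2 was, and neither passed (limma, adjusted p = 0.172 and 0.173). It was 3.77 without ICD replicate 1 and 4.59 without ICD replicate 2. Those fits gave limma adjusted p = 0.0166 and 0.0112, but their spread comes from the MCI-HGR arrays alone and the lone ICD array is assumed to vary like them, so they are no replicated test of the ICD level. The files do not say how far the probe set detects the transcript of the embryo and how far the mRNA that was injected.

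The E2F genes differed among themselves. e2f1, whose protein drives genes of S phase, was read by 2 probe sets of e2f1.L. The brighter one (Xl2.16891.1.A1_at) gave 69.4 and 53.0 on the MCI-HGR arrays and 141.9 and 138.8 on the ICD arrays. Both MCI-HGR values lay below both ICD values, at 61.2 ± 11.6 against 140 ± 2.19 (signal, mean ± SD, n = 2). The signal was 2.31-fold lower by the geometric means, 2.04-fold lower within number 1 and 2.62-fold lower within number 2.

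On the log2 scale the difference of e2f1.L was -1.21 ± 0.30 (SE), with limma adjusted p = 3.52e-04 with the block and 0.630 without. Leaving out 1 array at a time gave log2 differences from -1.40 to -1.02, none of which passed without the block. The other probe set of e2f1.L (Xl2.56654.1.S1_at) read 6.8 and 7.9 with MCI-HGR and 11.9 and 6.5 with ICD alone, was not above the tag controls on any array and was removed by the filter. It therefore gives no second reading of e2f1.L.

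e2f3.S (Xl2.614.1.S1_a_at), the gene of another activator E2F, parted the arrays by number and not by group. It gave 1095.1 and 584.5 with MCI-HGR and 1269.9 and 713.4 with ICD alone. The array of number 1 was 1.87 times that of number 2 with MCI-HGR and 1.78 times with ICD alone, so the groups overlapped. Within both numbers MCI-HGR was somewhat lower, by -0.21 and -0.29 on the log2 scale, and the probe set did not pass (limma, adjusted p = 0.142 with the block).

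e2f4.S (Xl2.24786.1.S1_at) encodes an E2F that multicilin itself joins. Its signal was 252.0 and 244.6 on the MCI-HGR arrays and 254.0 and 252.3 on the ICD arrays. The MCI-HGR values were the lower ones, yet all 4 lay within a few percent. The log2 difference was -0.028, with a 95% confidence interval from -0.31 to 0.25 with the block and from -0.60 to 0.54 without. Taken as a fold with the block, the interval ran from 0.809 to 1.19, and the probe set did not pass (limma, adjusted p = 0.954).

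The DP genes, whose proteins pair with every one of these E2Fs, gave a like picture for tfdp1. tfdp1.L (Xl2.22023.1.S1_at) read 777.3 and 690.3 with MCI-HGR and 722.7 and 721.1 with ICD alone. The MCI-HGR arrays lay on either side of the ICD arrays, and the log2 difference was 0.021 with a blocked 95% confidence interval from -0.19 to 0.23. Its homeolog tfdp1.S (Xl2.49796.1.S1_at) read 90.2 and 52.0 with MCI-HGR and 91.7 and 52.6 with ICD alone. Here the number set the level, with number 1 at 1.73 times number 2 in the MCI-HGR group and 1.74 times in the ICD group, while the homeolog tfdp1.L had ratios of 1.13 and 1.002.

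Within each number tfdp1.S differed between groups by no more than -0.024 on the log2 scale. Its blocked interval was from -0.45 to 0.41, wider than that of tfdp1.L, and from -1.20 to 1.16 without the block. Neither tfdp1 homeolog passed (limma, adjusted p = 0.954 for tfdp1.L and 0.979 for tfdp1.S with the block). For e2f4.S and tfdp1.L the signs of these small differences turned with the scaling of the arrays, to 0.00092 for e2f4.S with arrays centred on their median and to -0.022 for tfdp1.L after quantile normalization, and tfdp1.S turned to 0.0088 with centring.

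**Figure D2:**
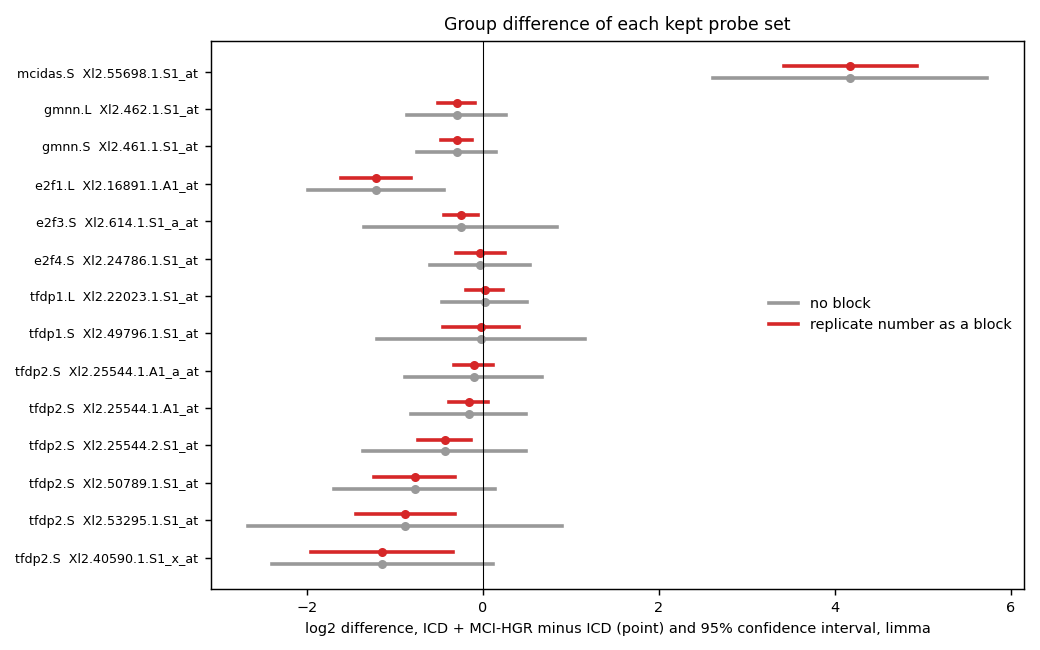
Log2 difference, MCI-HGR minus ICD, of the 14 tested probe sets with unadjusted 95% confidence intervals from limma, with the replicate number as a block (upper bar of each row) and without it (lower bar). Intervals are narrower with the block for all 14, and those of e2f4.S and both tfdp1 homeologs lie across 0 in both fits.

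tfdp2, the gene of the other DP protein, was read by 7 probe sets of tfdp2.S, which did not agree in size. The brightest (Xl2.25544.1.A1_a_at) read 1258.6 and 1035.1 with MCI-HGR and 1597.8 and 943.4 with ICD alone. It was lower with MCI-HGR within number 1 and higher within number 2, and its log2 difference was -0.11. Xl2.25544.1.A1_at and Xl2.25544.2.S1_at, from the same cluster of transcripts by their names, had log2 differences of -0.16 and -0.43. For these 3 the groups overlapped, and none passed.

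Among the dimmer probe sets of tfdp2.S, Xl2.50789.1.S1_at read 59.6 and 93.5 with MCI-HGR and 142.6 and 114.5 with ICD alone. Its groups did not overlap, and it was 1.71-fold lower by the geometric means, 2.39-fold within number 1 and 1.22-fold within number 2. This was the one probe set of tfdp2.S that passed (limma, adjusted p = 0.0386 with the block and 1 without). Its log2 difference of -0.78 became -0.45 when MCI-HGR replicate 1 was left out and -1.10 when MCI-HGR replicate 2 was, and with the block it no longer passed after quantile normalization or with arrays centred on their median.

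Xl2.53295.1.S1_at of tfdp2.S read 63.9 and 18.6 with MCI-HGR and 84.4 and 47.8 with ICD alone, a log2 difference of -0.88 that did not pass (limma, adjusted p = 0.0582 with the block). Xl2.40590.1.S1_x_at read 9.5 and 18.3 with MCI-HGR and 34.1 and 24.9 with ICD alone and did not pass either. Its MCI-HGR array of number 1 was not above the tag controls, and the log2 difference of -1.14 was -0.95 with that array raised to its tag control. The ending _x_at marks probes that may also match other transcripts. The last, Xl2.40590.1.S1_at, at 9.1 and 3.8 with MCI-HGR and 15.1 and 9.5 with ICD alone, was removed by the filter. All 6 tested probe sets of tfdp2.S thus had negative log2 differences, from -0.95 to -0.11 with that array raised. These 6 read 1 gene and are not 6 separate observations.

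Geminin, the family member that restrains replication licensing, was bright in both homeologs. gmnn.S (Xl2.461.1.S1_at) read 3030.7 and 3202.6 with MCI-HGR and 4305.5 and 3408.0 with ICD alone. The groups did not overlap, but the difference lay mostly in number 1, at 1.42-fold lower, against 1.06-fold lower in number 2. By the geometric means it was 1.23-fold lower and passed (limma, adjusted p = 0.0388 with the block and 1 without). The log2 difference of -0.30 was -0.13 without ICD replicate 1 and -0.47 without ICD replicate 2, and with the block gmnn.S no longer passed with arrays centred on their median.

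gmnn.L (Xl2.462.1.S1_at) read 3259.0 and 4751.6 with MCI-HGR and 4996.6 and 4680.0 with ICD alone. The MCI-HGR array of number 1 stood low, and the other 3 arrays lay close together. Its log2 difference of -0.30 was the same size as that of gmnn.S, but it ran from -0.62 within number 1 to 0.022 within number 2 and did not pass (limma, adjusted p = 0.102 with the block). Whether the probe sets of the geminin homeologs read each other's transcripts was not tested.

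**Figure D3:**
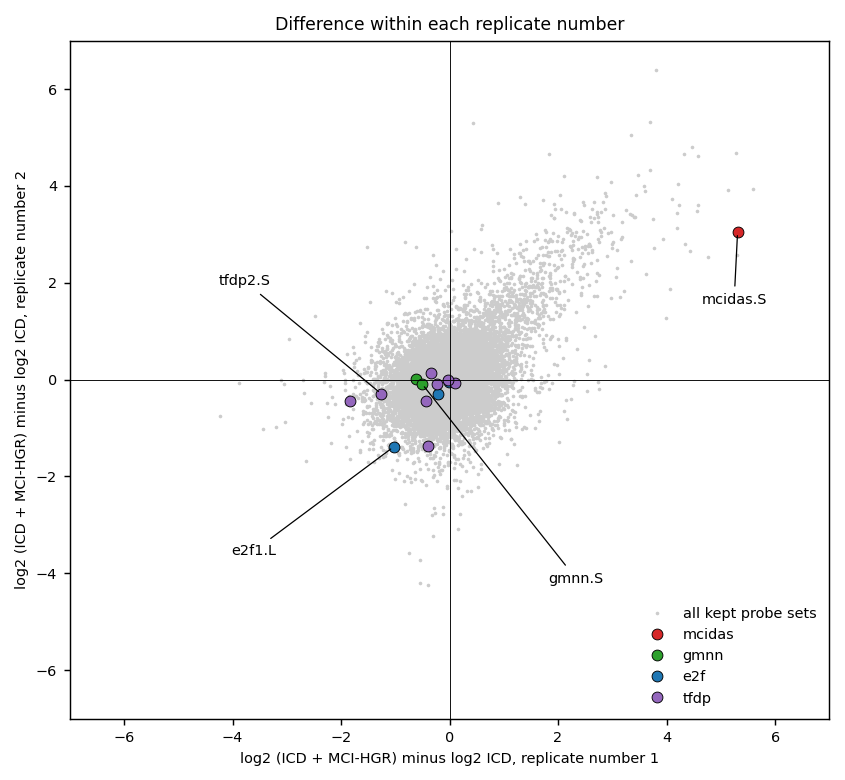
Log2 difference, MCI-HGR minus ICD, within replicate number 1 (horizontal) and number 2 (vertical) for all 24404 tested probe sets (grey) and the 14 members (coloured by gene family). The 4 labelled members passed with the block. mcidas.S is drawn at 5.31 and 3.05, the first against an ICD signal not above background, so that only a difference of at least 4.89 was measured there. e2f1.L lies at -1.03 and -1.39, and most other members lie near the origin or to its lower left.

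The replicate number moved 7 of the 14 members more than MCI-HGR did, against 71.4% of all tested probe sets. The number effect was the mean over both groups of the log2 difference, number 1 minus number 2, so opposite differences cancel. Among the 7 were e2f3.S, tfdp1.S and several probe sets of tfdp2.S, all higher on the arrays of number 1 in both groups. Those of tfdp2.S were Xl2.25544.1.A1_a_at, Xl2.25544.1.A1_at, Xl2.25544.2.S1_at and Xl2.53295.1.S1_at. By this measure the group moved e2f1.L and mcidas.S more than the number did. For mcidas.S the differences between numbers were opposite, at 1.44 with MCI-HGR and -0.82 with ICD alone. For e2f1.L the array of number 1 was 1.31 times that of number 2 with MCI-HGR and 1.02 times with ICD alone.

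Other genes of the E2F pathway were described from lists, by counts beside the background of 4.68% higher and 2.26% lower. The lists were chosen with earlier results of these data known, so the counts are no independent test. Among 10 tested probe sets of other E2F, pocket protein and MuvB genes, 2 were higher and 1 lower with the block. Their median log2 difference was -0.22, and whether they passed or not, 4 were higher and 6 lower within both numbers. Both that passed as higher belong to e2f7.L, the gene of an atypical E2F that in mammals represses E2F targets without a DP partner. Its brighter probe set (Xl2.5390.1.A1_at) read 4165.2 and 1669.1 with MCI-HGR and 1960.9 and 945.1 with ICD alone.

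In e2f7.L each MCI-HGR array was higher than the ICD array of its number, by 2.12-fold in number 1 and 1.77-fold in number 2, though number 1 was so much brighter that the groups overlapped (limma, adjusted p = 4.32e-07 with the block and 1 without). The other e2f7.L probe set (Xl2.5390.2.S1_at) was 2.34-fold higher in number 1 and 1.29-fold in number 2. e2f8.L, of the related atypical E2F, read 647.9 and 503.8 with MCI-HGR and 734.9 and 563.1 with ICD alone and did not pass. The probe set that passed as lower was that of mybl2.S, of a Myb protein that works with the MuvB core. It read 563.6 and 397.3 with MCI-HGR and 676.8 and 592.5 with ICD alone. The pocket protein gene rbl1.L and the MuvB gene lin9.L, each with 2 probe sets, and rbbp4.S did not pass.

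Of the geminin family list, cdt1.L, the licensing factor that geminin binds, had 3 probe sets. On 2 of them it was lower and passed, by 1.5-fold (Xl2.273.1.S1_at) and 1.43-fold (Xl2.34776.1.S1_at), with adjusted p = 5.60e-04 and 0.00249 by limma with the block. The third (Xl2.10162.1.S1_at) was 1.21-fold lower and did not pass. The array of number 1 was the brighter one in both groups for all 3, and the groups overlapped.

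Upstream of the pocket proteins, 0 of 19 tested probe sets of cyclin D, cyclin E and Cdk genes were higher and 5 were lower with the block, while without it none passed by limma and 1 had an unadjusted p under 0.05. The cyclin E gene ccne2.S read 375.5 and 248.7 with MCI-HGR and 690.3 and 527.4 with ICD alone, with no overlap. It was 1.97-fold lower, and 1.84-fold and 2.12-fold lower within numbers 1 and 2 (limma, adjusted p = 1.45e-05 with the block and 0.953 without). The other 4 belong to ccne2.L, both homeologs of the cyclin D gene ccnd1, and cdc25a.L, of a phosphatase that activates Cdk2. The kinase genes cdk2, cdk4 and cdk6 and the cyclin gene ccnd2.L did not pass, and cdkn1a.L, a Cdk inhibitor gene, read 21.9 and 22.3 with MCI-HGR and 20.5 and 12.0 with ICD alone.

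S-phase genes known as targets of E2F formed a list that holds e2f1 itself. It also holds mybl2, ccne1, ccne2 and cdc25a, which are counted in the lists above as well. Of its 49 tested probe sets, which read 38 genes, 1 was higher and 19 were lower with the block. Without it none passed by limma, and 7, all lower, had an unadjusted p under 0.05. Without overlap, 22 were lower and 0 higher, against 11.8% and 11.5% of all tested probe sets. Their median log2 difference was -0.31, and -0.33 and -0.30 within numbers 1 and 2. Leaving out ICD replicate 1 or MCI-HGR replicate 2 gave medians of -0.17 and -0.16, and leaving out ICD replicate 2 or MCI-HGR replicate 1 gave -0.46 in both cases. mcm4.L, of the replicative helicase, gave 822.9 and 802.3 with MCI-HGR against 1317.0 and 1292.4 with ICD alone, and pcna.S, the polymerase clamp, 959.0 and 1093.9 against 1592.3 and 1936.9.

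e2f1.L and cdc6.S, the gene of a licensing factor that read 429.9 and 247.9 with MCI-HGR and 926.1 and 619.1 with ICD alone, had the most negative differences of that list among tested probe sets, each with a log2 difference of -1.21. The probe set that passed as higher was 1 of 4 of uhrf1.S (Xl2.55524.1.S1_x_at, log2 difference 0.26), a gene of a DNA methylation cofactor, whose other 3 did not pass.

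Genes known as targets of the multicilin complex, mcidas among them, moved the other way. That list shares foxj1 and ccno with the multiciliated cell markers above. Of its 15 tested probe sets, 14 were higher with the block, and the exception was 1 of 2 probe sets of the centriole kinase gene plk4.L. Without the block none passed by limma, and 11, all higher, had an unadjusted p under 0.05. The median log2 difference of the 15 was 3.25. The 14 and the medians given here include mcidas.S, whose probe set may read the injected mRNA. The forkhead gene foxj1.S read 3818.8 and 2668.4 with MCI-HGR and 283 and 268.7 with ICD alone. The median ratio of number 1 to number 2 over this list was 1.44 between the MCI-HGR arrays and 0.907 between the ICD arrays. Over all tested probe sets these medians were 1.10 and 1.11. mcidas.S had a ratio of 2.72 between the MCI-HGR arrays, and whether these ratios are related was not tested. myb.S, a Myb gene active early in multiciliated cells, read 17 and 14.5 with MCI-HGR and 2.2 and 3.3 with ICD alone. It was above the tag controls on both MCI-HGR arrays only, at least 1.38-fold higher, and was removed by the filter and not tested.

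**Figure D4:**
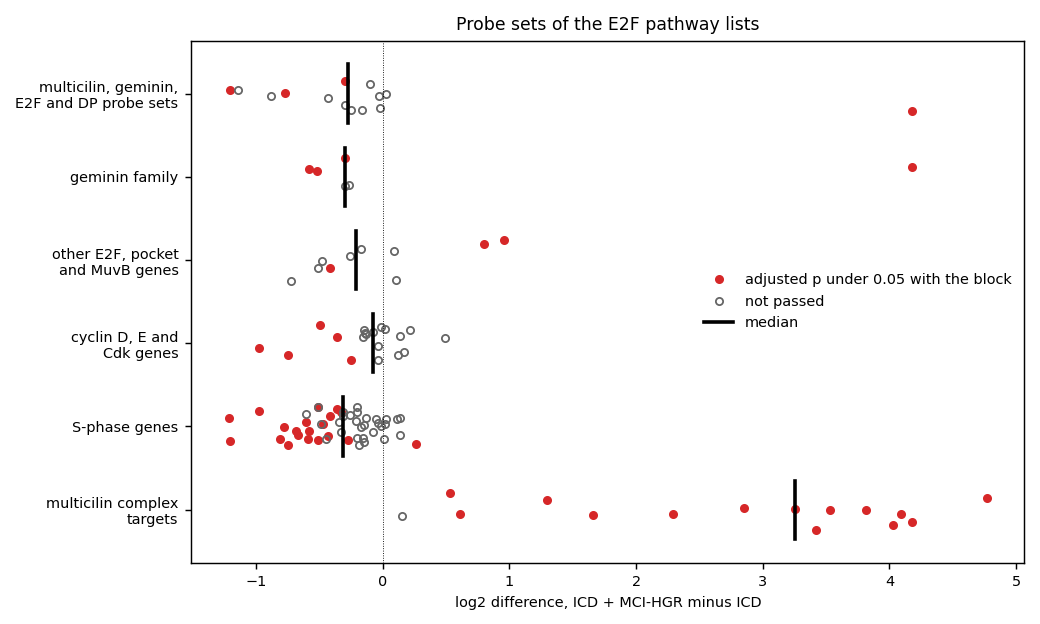
Log2 difference, MCI-HGR minus ICD, of each tested probe set in the 14 members (top row) and in the 5 pathway lists, with medians as vertical bars and probe sets that passed with the block filled. Some probe sets stand in more than 1 list, and mcidas.S is also among the multicilin complex targets. The members, of which 6 read tfdp2.S, have a median of -0.27. mcidas.S is drawn apart at 4.18 (at least 3.97 with its dim ICD array raised to the tag control). The S-phase genes have a median of -0.31 and the multicilin complex targets one of 3.25.

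The probe sets most like mcidas.S over the 4 arrays were found by the root mean square distance between log2 signals, each centred on its own mean, among 12246 probe sets with an informative symbol. The closest were ccno.S and ccno.L, of a cyclin-like protein needed for centriole amplification, both at a distance of 0.33. ccno.S read 1828.8 and 814.1 with MCI-HGR and 38.0 and 52.9 with ICD alone, so it shared with mcidas.S the higher MCI-HGR value in number 1 and the lower ICD value in number 1. The likeness rests in part on the ICD signal of mcidas.S that was not above background. wrap73.L, itself above the tag controls on 1 of 2 ICD arrays, followed at 0.36, kit.S, of a receptor tyrosine kinase, at 0.41 and cetn4.L, of a centrin, at 0.43.

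Nearest to e2f1.L were MGC69520.S, MGC116527, fzd7.L, of a Wnt receptor, stk3.S, of a kinase of the Hippo pathway, and tuft1.L, at distances from 0.070 to 0.13. MGC116527 was above the tag controls on 0 of 2 MCI-HGR arrays, at 9.2 and 6.6 with MCI-HGR and 21.6 and 20.0 with ICD alone, so its distance and place are not well measured. fzd7.L read 45.4 and 28.4 with MCI-HGR and 83.3 and 74.0 with ICD alone. No gene of the S-phase list was among these 5. That list, with e2f1.L itself, holds only 49 tested probe sets beside the 12246 with an informative symbol, so its absence says little. With 4 arrays, such distances describe these samples and nothing more.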

How the data were processed

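Expression was measured on 4 one-colour Affymetrix arrays. For each array the authors deposited a linear signal intensity for every probe set. The submitters' processing notes name MAS5, whose version and scaling target these sources do not give. Detection calls were not used. After removal of 96 controls, the 32539 deposited intensities of each array were turned into log2 values. The lowest 25% by mean log2 signal (below about 10.6) were removed. Symbols came from the platform annotation: 15495 probe sets had 1 symbol, 279 several and 16765 were unnamed here. RefSeq's v10.1 gene table, used for names and gene order only, matched 15384 of these and updated 2.

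The comparison used limma 3.58.1 under R 4.3.3 (lmFit, eBayes with intensity trend, two-sided). The group was the one term (2 residual degrees of freedom), and the replicate number as a block (1 residual, prior 15.1) was an alternative; SEs printed are from the fit without the block. The block is printed beside it, and used for the probe sets said to have passed, because arrays parted by number. The labels do not state that the replicates are separate clutches. The p-values therefore reflect the spread among these arrays, which may be technical, and 4 arrays limit the precision. With the block they rest mostly on the prior, which pools spread over probe sets, and little on a probe set's own spread. Fits were tested on simulated data. A probe set not above the highest of 17 tag controls on an array counts as not above background there.

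The members and lists were chosen with earlier results of these data known. Every member is named; the lists gave up to 3 genes each that were higher and 3 that were lower, by smallest p, and likeness the 5 closest to mcidas.S and e2f1.L. Other genes, among them e2f8.L, cdc6.S, myb.S, cdk2, cdk6, ccne2.L and ccnd1.L, were named after their values were seen.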

Additional observations from a re-analysis of the deposited data

How the results depend on the processing

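Without the replicate block, 0 probe sets passed in either direction under every scaling, filter, pseudocount and prior tried, and with 1 array left out 0 to 126 were higher and 0 lower, with 0 to 1 member higher and 0 lower. Across kept probe sets the deviations of same-numbered arrays from their group means correlated at 0.745, but 2 numbers cannot show that the arrays are paired. With the block, 1142 probe sets were higher and 551 lower, 1 and 3 of them members. Adding quantile normalization gave 986 and 522, with 1 and 2 members. The other combinations with the block were chosen after seeing the data. These gave 1168 and 386 with arrays centred on their median (1 and 1 member), 1283 and 696 with log2(signal + 16) (1 and 6), 1103 and 497 with no filter (1 and 3), 991 and 516 with the lowest 50% removed (1 and 3), and 630 and 311 with 1 probe set per gene (1 and 3). Without the intensity trend the block gave 0. mcidas.S and e2f1.L passed in 7 of 8 fits with a block, gmnn.S in 6 of 8, and Xl2.50789.1.S1_at of tfdp2.S in 4 of the 7 that held it. gmnn.L passed in 2 of 8, with log2(signal + 16) and with 1 probe set per gene.

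Signs turned only for members that did not pass. With quantile normalization tfdp1.L was at -0.022, with and without the block. With arrays centred on their median e2f4.S was at 0.00092 and tfdp1.S at 0.0088, with and without the block. With 1 array left out, log2 differences ran from -0.70 to 0.20 for e2f3.S, from -0.065 to 0.11 for tfdp1.L and from -0.42 to 0.38 for tfdp1.S. For tfdp2.S they ran from -0.49 to 0.27 (Xl2.25544.1.A1_a_at), from -0.39 to 0.066 (Xl2.25544.1.A1_at) and from -1.77 to 0.0087 (Xl2.53295.1.S1_at). The cause was not tested. Signals near the tag controls, as for mcidas.S with ICD alone and the dimmest tfdp2.S probe sets, limit what their differences show.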

Other observations

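By gene order in the RefSeq table, ccno.S is the protein-coding gene next to mcidas.S, as in the locus that holds both genes in other vertebrates. These neighbours were looked at after the values were seen. On the far side of mcidas.S, gpx8.S read 15.4 and 8.2 with MCI-HGR and 6.9 and 5.3 with ICD alone and was removed by the filter. The next, gzmak.S, read 85.2 and 23.0 with MCI-HGR and 71.1 and 25.9 with ICD alone, a log2 difference of 0.045 that did not pass (limma, adjusted p = 0.961 with the block). Next to mcidas.L, ccno.L had a log2 difference of 4.02 and passed. It read 4812.3 and 3189.5 with MCI-HGR and 204.5 and 283.5 with ICD alone. On the far side of mcidas.L the next gene is cdc20b.L, which had no probe set of its own. cdc20b is on the list of multicilin complex targets. gpx8.L, the gene after it, read 108.2 and 53.3 with MCI-HGR and 75.3 and 58.1 with ICD alone and did not pass.

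The brachyury genes separated the arrays by number. tbxt.S read 474.1 and 25.8 with MCI-HGR and 930.4 and 12.0 with ICD alone, and tbxt.L read 273.1 and 22.2 with MCI-HGR and 668.9 and 13.2 with ICD alone. Both arrays of number 1 were high, and within that number the MCI-HGR array was the lower one for both homeologs. Neither passed with the block (limma, adjusted p = 0.954 and 0.764).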
